A study of Mus musculus with 12 samples.

Results

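The 36 genes described here encode the enzymes, regulators and counter-regulators of sterol and fatty acid synthesis. They were taken from the count table of MC38 tumor cells as the rows whose Ensembl identifier carries one of 36 listed symbols in GENCODE M21, out of 33219 features in all. By role, 7 belong to the mevalonate steps, 11 to the path from squalene to cholesterol, 6 to the SREBP regulators and a sterol carrier, 9 to fatty acid synthesis and 3 to the targets of the liver X receptors (LXR). All 36 passed the filter on low counts and were tested.

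The study asked how a RAC1 mutation in tumor cells alters their transcripts with and without anti-PD1, an antibody that blocks the T cell checkpoint receptor PD1. MC38 is a mouse colon cancer line. WT cells, or cells of 1 clone (clone 9, by the study's methods) in which both Rac1 alleles were edited to A159V, were grown under the skin of C57BL/6 mice aged 6 to 8 weeks. These mice have an intact immune system, and they received anti-PD1 or an IgG isotype control every 3 days from day 3. Each genotype was thus studied with IgG and with anti-PD1, which gave 4 groups of 3 mice, named WT IgG and WT anti-PD1 for the WT cells and likewise for A159V. Tumor cells were purified from each dissociated tumor on day 13 with a magnetic kit that removes other cells, and polyadenylated RNA was sequenced. Since the mutant came from a single clone, effects of the mutation and of that clone cannot be told apart.

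Total counts ranged from 14053582 to 21949942 per sample, and the 36 genes took 0.349% to 0.525% of them. The log2 CPM of replicates correlated across genes with r between 0.964 and 0.985 in WT IgG and between 0.972 and 0.992 in the other groups, so the WT IgG replicates were the least alike. The cells are labelled as an adenocarcinoma, yet the epithelial genes Epcam, Krt20 and Cdx2 had 4, 5 and 3 counts over the 12 samples together, and Krt8 stayed at or below 0.724 CPM. Genes of other cells varied between groups. The leukocyte gene Ptprc averaged 1.31 CPM in WT IgG and 10.2 CPM in WT anti-PD1, but in A159V only 0.103 CPM with IgG and 0.129 CPM with anti-PD1. In these bulk samples, fewer cells of a type and less RNA per cell cannot be told apart.

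Cells make cholesterol from acetyl-CoA through mevalonate and squalene, and fatty acids from acetyl-CoA through malonyl-CoA. Both paths are switched on by the SREBP transcription factors, which are held in the endoplasmic reticulum by INSIG proteins when sterols are plentiful and are carried to the Golgi by SCAP, for cleavage, when sterols are scarce. Oxysterols, which accumulate when sterols are in excess, activate LXR, and some LXR targets export cholesterol or limit its uptake.

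Promoters of 4 members are shown because each stands for one of the patterns below: an early sterol gene that differed little (Hmgcs1), the sterol gene with the largest increase in A159V IgG (Hsd17b7), the fatty acid synthase gene (Fasn) and the gene with the largest decrease in A159V (Abca1). Each run gives the 250 bases before the RefSeq transcription start, 5′ to 3′ on the strand of the gene, in GRCm38.p6. Capitals mark matches, on either strand, to a sterol regulatory element (TCACNCCAC), the NF-Y box (CCAAT, read ATTGG on the other strand) or the Sp1 box (GGGCGG, read CCGCCC on the other strand).
Hmgcs1, chr13:119690101-119690350, plus strand: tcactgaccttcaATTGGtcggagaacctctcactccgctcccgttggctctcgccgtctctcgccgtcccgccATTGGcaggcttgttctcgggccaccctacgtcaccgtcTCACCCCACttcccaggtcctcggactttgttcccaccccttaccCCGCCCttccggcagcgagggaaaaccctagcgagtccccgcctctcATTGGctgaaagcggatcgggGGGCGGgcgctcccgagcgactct
Hsd17b7, chr1:169969206-169969455, minus strand: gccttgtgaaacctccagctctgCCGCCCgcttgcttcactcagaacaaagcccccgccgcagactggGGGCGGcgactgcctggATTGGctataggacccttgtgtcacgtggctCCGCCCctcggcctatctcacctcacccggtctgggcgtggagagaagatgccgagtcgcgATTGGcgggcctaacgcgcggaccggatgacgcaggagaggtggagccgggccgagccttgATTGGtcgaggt
Fasn, chr11:120824548-120824797, minus strand: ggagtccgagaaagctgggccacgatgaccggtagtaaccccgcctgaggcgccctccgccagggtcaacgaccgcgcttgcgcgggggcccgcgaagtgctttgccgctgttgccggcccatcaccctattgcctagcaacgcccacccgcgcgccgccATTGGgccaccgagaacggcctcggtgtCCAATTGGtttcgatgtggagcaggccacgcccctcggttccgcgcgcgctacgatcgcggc
Abca1, chr4:53159896-53160145, minus strand: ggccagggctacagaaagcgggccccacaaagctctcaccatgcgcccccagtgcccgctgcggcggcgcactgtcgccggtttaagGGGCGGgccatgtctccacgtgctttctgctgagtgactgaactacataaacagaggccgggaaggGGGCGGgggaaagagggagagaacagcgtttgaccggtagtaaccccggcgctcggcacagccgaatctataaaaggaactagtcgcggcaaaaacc
The Hmgcs1 window held 1 match to the sterol regulatory element, 3 to CCAAT and 2 to GGGCGG. Hsd17b7 had 3 CCAAT and 3 GGGCGG matches, Fasn had 3 CCAAT matches, 2 of which overlap on opposite strands in CCAATTGG, and Abca1 had 2 GGGCGG matches.

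RefSeq promoter entries matched 28 of the 36 members. There was none for Abcg1, Fads1, Fdft1, Fdps, Scd1, Scd2, Sqle and Stard4. The CCAAT letters were present in 21 of the 28 members (75%), against 37.5% of 27025 genes with an entry, and GGGCGG in 23 of 28 (82.1%), against 35.4%. The sterol regulatory element form was found in Hmgcs1 alone of the 28 (3.57%), against 1.22% of all genes. Among the 8 members with an entry that were called higher in A159V IgG, 5 held CCAAT, 7 held GGGCGG and 0 held the sterol element form. These matches describe the letters in a fixed window and are not shown to be binding sites.

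Levels were compared between genes per exon length, as RPKM averaged over the 4 groups. Scd2, a stearoyl-CoA desaturase, was highest at 80.4 RPKM, followed by the ATP citrate lyase gene Acly at 58.7 RPKM and Hmgcs1 at 52.2 RPKM. Most members lay between 7.54 RPKM (Lss) and 52.2 RPKM. Below these came the LXR target Mylip at 4.56 RPKM, the sterol reductase gene Tm7sf2 at 0.612 RPKM, and the exporters Abca1 at 0.316 RPKM and Abcg1 at 0.0416 RPKM. Tm7sf2 overlaps Vps51 on the same strand, so its reads may be shared and its values are uncertain.

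**Figure D1:**
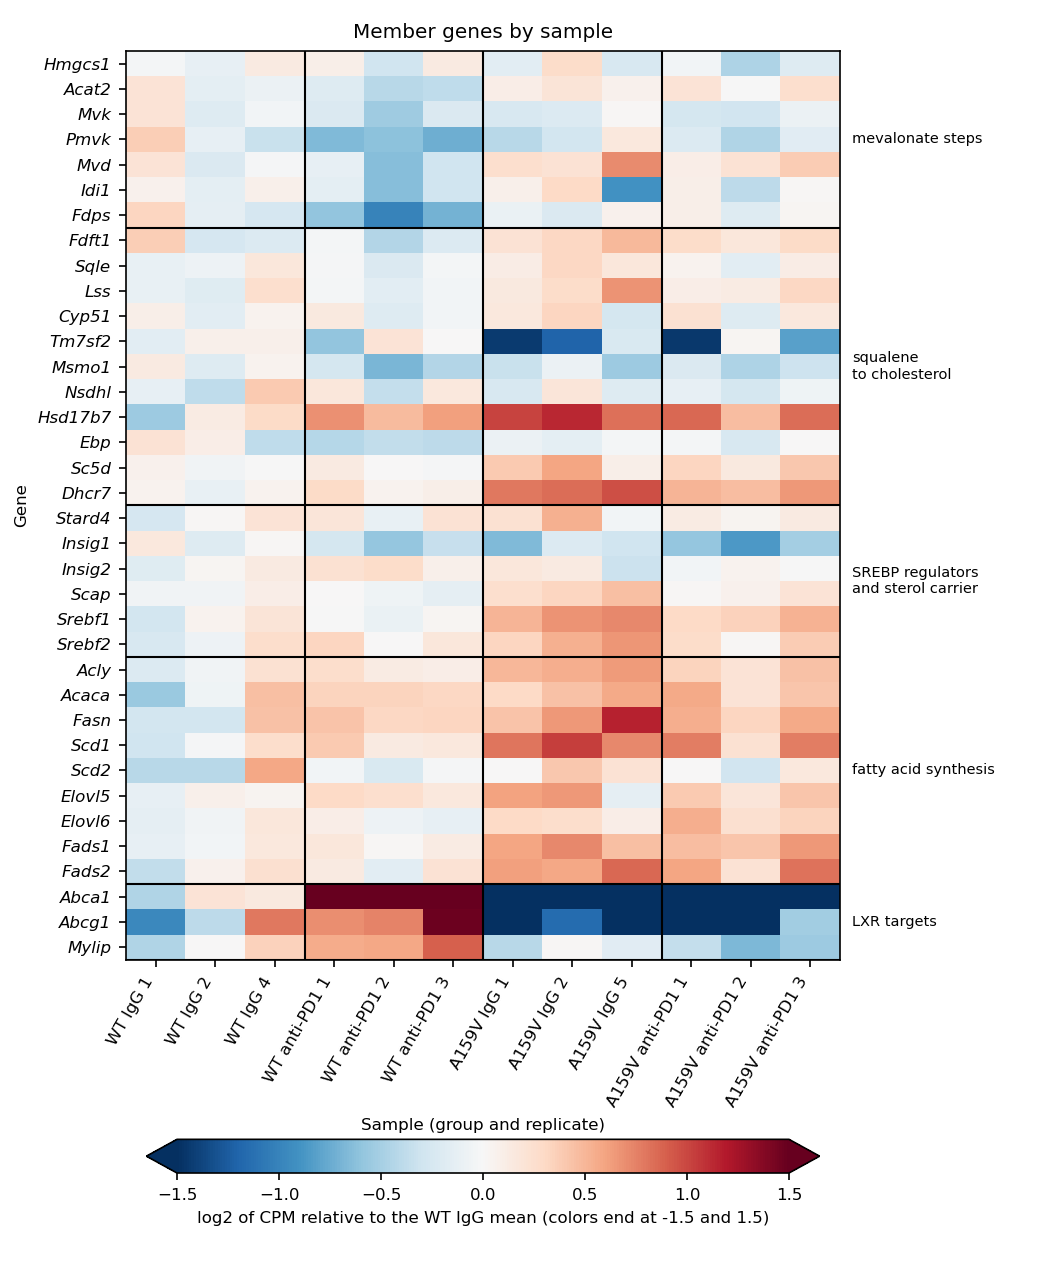
Each row is 1 of the 36 genes, ordered by role, and each column is 1 of the 12 samples; color gives the log2 of CPM relative to the WT IgG mean, with the color scale ending at -1.5 and 1.5. The fatty acid rows are redder in A159V IgG than in WT IgG, the mevalonate rows are bluest in WT anti-PD1, and Abca1 is at the dark blue end in all A159V samples.

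The first comparison asked how the genotypes differed under the IgG control. In A159V IgG, genes of fatty acid synthesis, both SREBP genes, Scap and the late cholesterol enzymes Hsd17b7 and Dhcr7 were higher than in WT IgG, the cholesterol exporter gene Abca1 was much lower, and none of the mevalonate genes passed the test. A gene was called when its adjusted p (edgeR quasi-likelihood test, Benjamini-Hochberg) was under 0.05 and its absolute log2 fold change above 0.3. Of the 36 members, 11 were called (30.6%), 10 higher and 1 lower, where 28% of the 14340 genes tested were called, 15.6% higher and 12.4% lower. The split of all calls depends on scaling, from 2231 higher and 1779 lower with TMM to 1680 and 2052 with RLE and 1337 and 2313 with upper-quartile scaling. The share called in either direction was thus close to the background, while 27.8% of members were called higher. The median log2 fold change of the members was 0.22, against 0.02 over all genes. An unadjusted p under 0.05 was reached by 19 members, against 40.3% of all genes. In 15 members the 3 samples of one group all lay above the 3 of the other, 11 with A159V higher, where this held for 35.8% of all genes in either direction and 19.8% with A159V higher.

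Fatty acid synthesis was the role with the most calls. All 9 genes had higher fitted values in A159V IgG, at a median of 0.56 on the log2 scale, and 5 were called. All 9 were also above WT IgG with RLE and upper-quartile scaling, with medians of 0.48 and 0.43.

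Acly makes the cytosolic acetyl-CoA from which both paths start. It measured 222, 246 and 299 CPM (counts relative to the TMM-scaled library size) in WT IgG and 360, 373 and 397 CPM in A159V IgG. The groups did not overlap, and the log2 fold change was 0.56 ± 0.13 (SE) with an adjusted p of 0.00919. Fasn encodes the fatty acid synthase that builds palmitate. Its levels were 322, 321 and 527 CPM in WT IgG, against 525, 610 and 865 CPM in A159V IgG, so the highest WT sample just exceeded the lowest A159V sample. The log2 fold change of Fasn was 0.77 ± 0.21 (SE, adjusted p = 0.0184). It was 0.47 without A159V IgG replicate 5 (adjusted p = 0.0852), and the call was also lost without WT IgG replicate 1 or 2 and when only the groups compared were fitted.

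Scd1, which introduces the first double bond into saturated acyl chains, measured 106, 128 and 156 CPM in WT IgG, against 226, 267 and 214 CPM in A159V IgG. All A159V samples lay above all WT samples, and the log2 fold change was 0.86 ± 0.18 (SE, adjusted p = 0.00448). The desaturases of polyunsaturated fatty acids moved the same way. Fads1 measured 148, 156 and 179 CPM in WT IgG, against 243, 265 and 220 CPM in A159V IgG, with a fitted log2 difference of 0.59 ± 0.13 (SE, adjusted p = 0.00508). Fads2 measured 49.7, 66.7 and 75.6 CPM against 98.1, 95.8 and 116 CPM, with a fitted log2 difference of 0.69 ± 0.19 (SE, adjusted p = 0.0157). Neither desaturase gene overlapped between the groups. The call of Fads2 was lost in 5 of 16 alternatives, among them leaving out WT IgG replicate 1 or 2 or A159V IgG replicate 5, and that of Acly in 3 of 16, among them leaving out WT IgG replicate 2.

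The other fatty acid genes did not pass. Acaca, which makes malonyl-CoA, averaged 107 ± 36.8 CPM in WT IgG (SD, n = 3) against 145 ± 13.9 CPM in A159V IgG, and the elongase gene Elovl5 averaged 89.4 ± 6.14 and 119 ± 32.6 CPM. Their adjusted p was 0.117 and 0.0968. The elongase gene Elovl6 had a log2 fold change of 0.22 (adjusted p = 0.216) and Scd2 of 0.22 (adjusted p = 0.524). Scd2 spread widely within WT IgG, at 323, 324 and 645 CPM, and the highest of these was above all A159V IgG samples, at 432, 569 and 499 CPM.

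**Figure D2:**
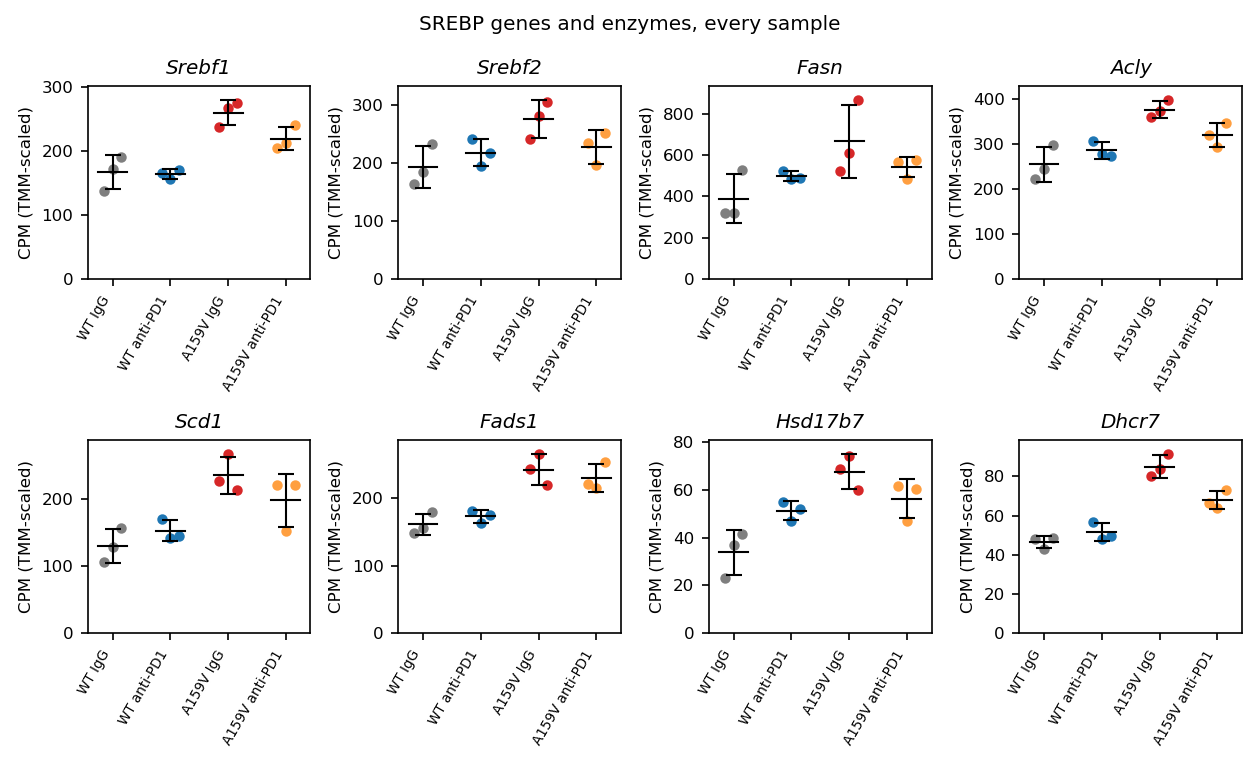
CPM scaled by TMM (linear y axis from 0) in every sample of the 4 groups for 8 members, with the mean and SD of 3 mice as bars. Dhcr7 shows the cleanest separation, with all A159V IgG samples at or above 80.3 CPM and all WT samples at or below 56.8 CPM.

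Among the SREBP regulators, 3 of 6 were called, all higher in A159V IgG. Srebf1 encodes SREBP1, the factor that mainly drives fatty acid genes. It measured 138, 173 and 190 CPM in WT IgG, against 238, 266 and 275 CPM in A159V IgG, without overlap, and its log2 fold change was 0.64 ± 0.14 (SE, adjusted p = 0.00492). Srebf2, which encodes the more sterol-directed SREBP2, measured 163, 184 and 233 CPM in WT IgG, against 241, 281 and 305 CPM in A159V IgG. The groups again did not overlap, with a log2 fold change of 0.51 ± 0.16 (SE, adjusted p = 0.0325). Scap, the escort of SREBP, measured 77.3, 77 and 85.8 CPM against 95.1, 100.1 and 110 CPM, with a fitted log2 difference of 0.34 ± 0.11 (SE, adjusted p = 0.0373). The calls of Srebf2 and Scap were lost with RLE scaling and in 10 and 12 of 16 alternatives in all. Their fold changes stayed positive in each, and that of Scap was 0.21 on the log2 scale without A159V IgG replicate 5.

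The INSIG genes, whose products retain SCAP, did not pass. Insig1, itself a well-known SREBP target, measured 171, 135 and 157 CPM in WT IgG, against 97.4, 133 and 125 CPM in A159V IgG. All A159V samples were below all WT samples, with a log2 fold change of -0.38 ± 0.16 (SE) and an adjusted p of 0.0872. Insig1 was called lower in some alternatives, among them RLE and upper-quartile scaling and DESeq2. Insig2 measured 25.9, 29.8 and 32.2 CPM against 33, 32.2 and 23.4 CPM and overlapped throughout, with a log2 fold change of 0.01 ± 0.15 (SE, adjusted p = 0.957). Stard4, a carrier of free sterol, averaged 53.6 ± 8.4 and 64.2 ± 12.8 CPM (SD, n = 3; adjusted p = 0.249).

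On the path from squalene to cholesterol, 2 of 11 genes were called, both higher. Dhcr7, which catalyzes the last reduction to cholesterol, measured 48.3, 42.9 and 48.4 CPM in WT IgG, against 80.3, 83.5 and 91.2 CPM in A159V IgG. The groups were far apart, with a log2 fold change of 0.87 ± 0.12 (SE, adjusted p = 3.92e-04). Hsd17b7, a sterol 3-ketoreductase, measured 23.3, 37 and 41.5 CPM against 68.5, 74.3 and 59.9 CPM, with a fitted log2 difference of 0.99 ± 0.19 (SE, adjusted p = 0.003). This was the largest increase among the 36 genes. Its neighbors in the same demethylation sequence did not follow: the oxidase gene Msmo1 had a log2 fold change of -0.31 (adjusted p = 0.145) and the dehydrogenase gene Nsdhl of -0.07 (adjusted p = 0.815).

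The remaining squalene and sterol genes ranged from a log2 fold change of -0.86 for Tm7sf2 (adjusted p = 0.119) to 0.38 for Lss, lanosterol synthase (adjusted p = 0.0872). Sc5d, the sterol desaturase before Dhcr7, was close to Lss at 0.38 (adjusted p = 0.0576). Between them lay the squalene synthase gene Fdft1 at 0.34, the squalene epoxidase gene Sqle at 0.20, the demethylase gene Cyp51 at 0.10 and the isomerase gene Ebp at -0.09, with adjusted p of 0.146, 0.255, 0.701 and 0.697.

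None of the 7 mevalonate genes was called, and their median log2 fold change was -0.08. Hmgcs1, the HMG-CoA synthase, averaged 250.3 ± 23 CPM in WT IgG (SD, n = 3), close to the 246 ± 50 CPM of A159V IgG, with a log2 fold change of -0.02 and a 95% interval from -0.40 to 0.35. Fdps, farnesyl diphosphate synthase, averaged 226 ± 49.3 and 214 ± 20.5 CPM, with a log2 fold change of -0.08 and an interval from -0.44 to 0.28. These intervals lie below the fitted increases of Fasn, Scd1 and Dhcr7 as point values. Those increases have errors of their own (SE 0.21, 0.18 and 0.12), and the difference between roles was not tested. Mvd, a decarboxylase of the same path, had the only unadjusted p under 0.05 among the 7, with a log2 fold change of 0.41 ± 0.18 (SE, adjusted p = 0.101). The kinases Mvk and Pmvk, the isomerase Idi1 and the thiolase Acat2 had log2 fold changes of -0.14, -0.16, -0.09 and 0.12.

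Of the 3 LXR targets, 1 was called, and it was lower. Abca1 encodes the transporter that loads cholesterol onto apolipoprotein A-I. Its raw counts were 37, 52 and 61 in WT IgG (2.02, 3.18 and 3.06 CPM) and 10, 2 and 3 in A159V IgG (0.529, 0.096 and 0.159 CPM). The groups did not overlap, and 2 of the A159V samples were at or below the floor of 3 counts. The summed counts per total were 10.7 times higher in WT IgG, with a 95% counting interval from 6.30 to 19.6, and the fitted log2 fold change was -3.38 ± 0.48 (SE, adjusted p = 4.68e-04).

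Abcg1, which exports cholesterol to lipoprotein particles, measured 0.164, 0.245 and 0.552 CPM in WT IgG, against 0.0529, 0.144 and 0.106 CPM in A159V IgG. The groups did not overlap, but this gene rests on 18 and 6 summed counts, and its fitted log2 fold change of -1.61 had an adjusted p of 0.0775. Mylip, a ubiquitin ligase that promotes the breakdown of lipoprotein receptors, measured 10.3, 14.1 and 17.9 CPM against 10.6, 14.3 and 12.5 CPM. Its groups overlapped, with a log2 fold change of -0.18 ± 0.20 (SE, adjusted p = 0.531).

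**Figure D3:**
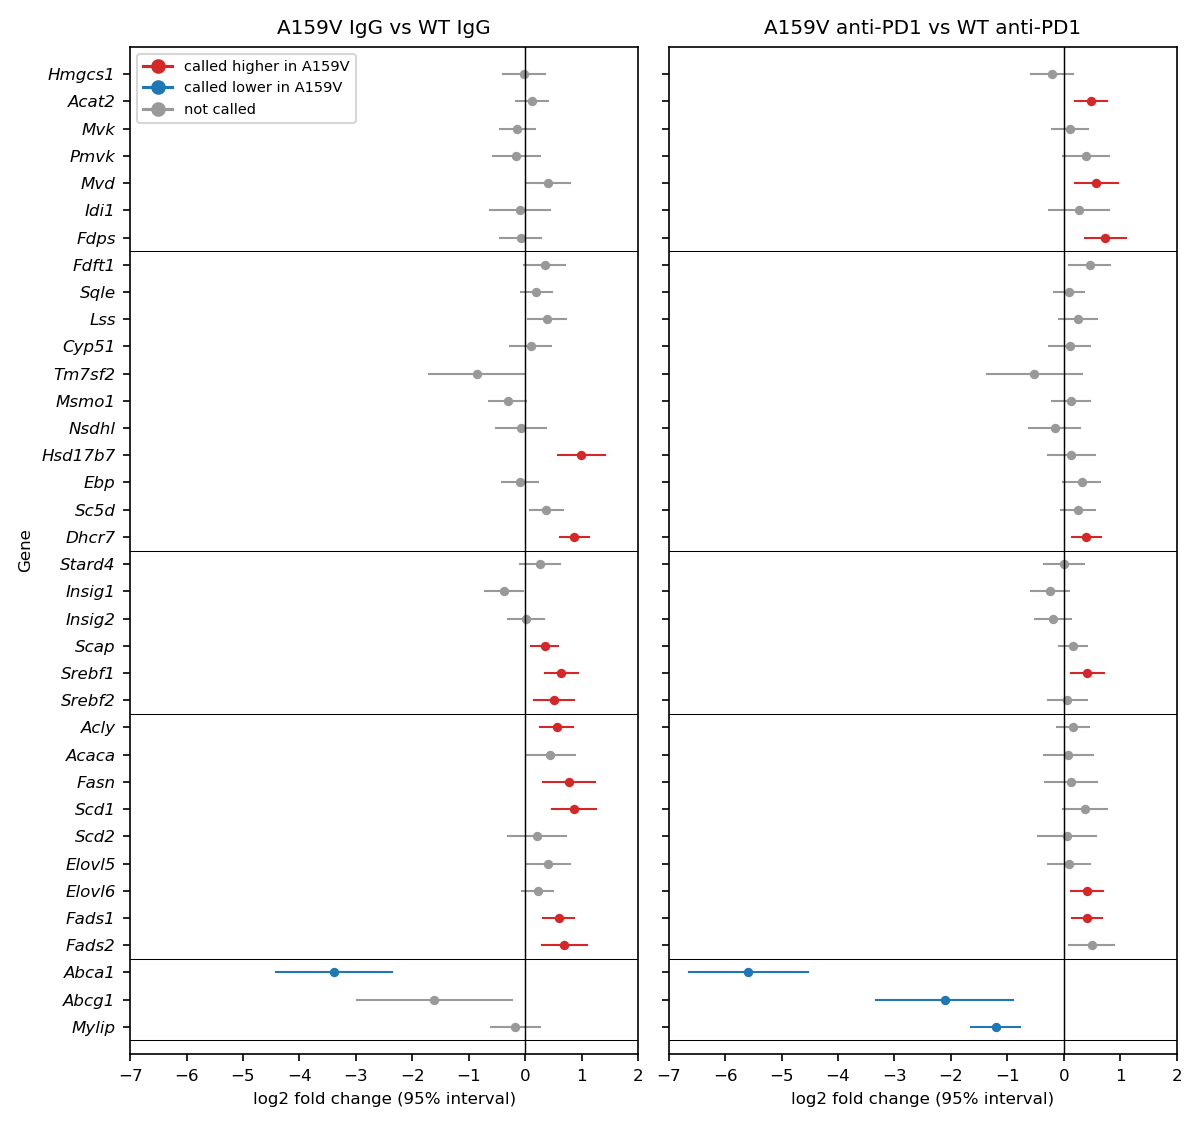
Fitted log2 fold change of A159V over WT (x axis, with 95% intervals) for the 36 genes, under IgG on the left and under anti-PD1 on the right; red and blue mark genes called higher and lower in A159V, gray those not called. Under IgG the calls fall on late sterol genes, SREBP regulators and fatty acid genes, and Abca1 lies far to the left in both panels.

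The spread within WT IgG bears on several of these values. WT IgG replicate 4 was the highest of its group for every fatty acid gene except Elovl5. Without WT IgG replicate 2 the number of members called was 7, and without WT IgG replicate 4 it was 14. In these fits 2925 of 14707 and 4547 of 14646 genes were called. Dhcr7, Scd1 and Abca1 were called in every alternative in which they were tested, and Hsd17b7 in all but the fit with a leukocyte marker score, where its log2 fold change was 0.89 (adjusted p = 0.0732). That score is the mean log2 CPM of 8 leukocyte genes. With it as a covariate, 4 members were called (Dhcr7, Fasn, Scd1 and Abca1), and the whole table gave 1058 calls in place of 4010. Of the members no longer called, Acly had a log2 fold change of 0.64, Srebf2 of 0.61 and Scap of 0.43. These were larger than without the score. Srebf1, Fads1 and Fads2 had smaller values than without it, at 0.58, 0.58 and 0.64, as did Hsd17b7. The score was -0.878 to 0.0586 in WT IgG and -1.21 to -0.844 in A159V IgG, so it went largely with genotype. The size of the fitted values with the score therefore cannot show what part leukocytes had.

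Marker genes of other cell types differed alongside, and which cells carried their reads was not tested. The sum of 8 leukocyte markers, mostly Cd74, was 64.6 to 180 CPM in WT IgG and 31.7 to 34.9 CPM in A159V IgG, and 2 of its 5 testable genes were called lower. Cd74 and Ptprc did not move together in WT. From IgG to anti-PD1, mean Cd74 went from 98.2 to 44.3 CPM and mean Ptprc from 1.31 to 10.2 CPM. The sum of 7 fibroblast markers was 501 to 827 CPM in WT IgG and 220.3 to 279 CPM in A159V IgG, with 4 of 7 called lower. The sum of 8 adipocyte markers was higher in A159V IgG, where it was mostly Fabp4, at 10.1 to 14.1 CPM against 2.36 to 4.43 CPM. Of its 3 testable genes, 2 were called higher under IgG, neither with overlap: Fabp4 averaged 8.74 against 1.66 CPM and Cidec 1.74 against 0.203 CPM. Under anti-PD1 the same 2 were called higher and Plin4 lower, at 0.983 against 2.87 CPM. Of the markers with too few counts to test, Lep had 0 counts, and Adipoq, Plin1, Cfd and Retn stayed at or below 0.381, 0.582, 0.710 and 0.546 CPM. From WT IgG to A159V IgG, mean Adipoq went from 0.189 to 0.223 CPM and mean Plin1 from 0.0699 to 0.297 CPM. Mean Cfd went from 0.237 to 0.0176 CPM and mean Retn from 0.216 to 0.173 CPM. The keratinocyte and sebocyte markers (3 testable) had 0 calls in both genotype comparisons. The endothelial markers (3 testable) had 1 call higher under IgG and 2 lower under anti-PD1, the skeletal muscle markers (5 testable) 0 and 4 lower, and the epithelial markers (2 testable) 0 and 1 lower. The part of other cell types in the member differences was not tested beyond the score above.

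The second comparison set the same genotypes side by side under anti-PD1. In A159V anti-PD1, 3 mevalonate genes, Dhcr7, Srebf1 and a pair of fatty acid genes were higher than in WT anti-PD1, and all 3 LXR targets were lower. Of the 36 members, 10 were called (27.8%), where 21.4% of all genes were called, 11.2% higher and 10.2% lower. These 1613 and 1462 calls became 1123 and 1672 with RLE and 931 and 1788 with upper-quartile scaling. Among members 7 were higher (19.4%) and 3 lower, with a median log2 fold change of 0.13 against 0.06 over all genes. In 18 members the groups did not overlap, 14 of them with A159V higher, where 56.1% of all genes did not overlap and 32.6% did so with A159V higher. WT samples of this comparison are different mice from those under IgG.

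Fdps measured 150.5, 113 and 138 CPM in WT anti-PD1 and 239.6, 198 and 231 CPM in A159V anti-PD1. The groups were well apart, with a log2 fold change of 0.73 ± 0.17 (SE, adjusted p = 0.00832). Mvd measured 41.5, 29 and 36.7 CPM against 48.7, 52.6 and 58.9 CPM, with a fitted log2 difference of 0.58 ± 0.18 (SE, adjusted p = 0.034). Acat2, which joins acetyl-CoA units at the start of the path, measured 45.9, 39.2 and 40 CPM against 60.1, 52.1 and 62.3 CPM, with a fitted log2 difference of 0.48 ± 0.13 (SE, adjusted p = 0.0212). None of these overlapped between the groups. The 4 other mevalonate genes did not pass, from -0.21 for Hmgcs1 to 0.40 for Pmvk on the log2 scale.

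Dhcr7 was the only gene of the squalene to cholesterol path to be called, at 56.8, 48.2 and 49.7 CPM in WT anti-PD1 and 66.5, 63.9 and 73.2 CPM in A159V anti-PD1. Its groups did not overlap, and the log2 fold change was 0.40 ± 0.12 (SE, adjusted p = 0.031). Hsd17b7 overlapped, at 54.8, 47.1 and 52.1 CPM against 61.7, 46.8 and 60.5 CPM, with a log2 fold change of 0.13 ± 0.19 (SE, adjusted p = 0.66). The path as a whole had a median log2 fold change of 0.13, with 9 of 11 values positive.

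Srebf1 measured 166, 156 and 171 CPM in WT anti-PD1 and 205, 212 and 239.8 CPM in A159V anti-PD1, without overlap, at a log2 fold change of 0.41 ± 0.14 (SE, adjusted p = 0.0443). The other regulators were not called. Srebf2 measured 241, 194 and 217 CPM against 235, 196 and 252 CPM (log2 fold change 0.06, adjusted p = 0.806), and Scap 80.3, 76.6 and 72.6 CPM against 80.7, 83.6 and 92.6 CPM (0.16, adjusted p = 0.326). Insig1 measured 128, 103 and 122 CPM against 103, 84.8 and 109 CPM, with overlapping groups, a log2 fold change of -0.25 and an adjusted p of 0.268. Insig2 measured 34.2, 35.3 and 30.8 CPM against 28.5, 30.4 and 29.1 CPM. Its groups did not overlap, but the log2 fold change of -0.19 had an adjusted p of 0.388. Stard4 had a log2 fold change of 0.00.

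Of the 9 fatty acid genes, Elovl6 and Fads1 were called. Elovl6, which extends palmitate, measured 81.5, 72.5 and 69.8 CPM in WT anti-PD1 and 111, 89.8 and 96.1 CPM in A159V anti-PD1, with a fitted log2 difference of 0.41 ± 0.13 (SE, adjusted p = 0.0391). Fads1 measured 181, 163 and 175 CPM against 222, 215 and 254 CPM, with a fitted log2 difference of 0.41 ± 0.13 (SE, adjusted p = 0.0347). Neither overlapped. The median log2 fold change of the role was 0.17, with all 9 values positive, but 8 with RLE and 6 with upper-quartile scaling. Fasn and Acly had log2 fold changes of 0.12 and 0.17, and Scd1 and Fads2 of 0.37 and 0.49, none of them called.

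The 3 listed LXR targets formed the only role in which every gene was called. Lpcat3, a known LXR target outside this list, was called higher in A159V anti-PD1, as given below. The 3 listed genes therefore do not stand for all LXR targets. Abca1 had raw counts of 158, 117 and 245 in WT anti-PD1 (8.18, 7.84 and 13.6 CPM) and of 4, 5 and 2 in A159V anti-PD1 (0.218, 0.266 and 0.111 CPM). The summed counts per total were 49.9 times higher in WT anti-PD1, with a 95% counting interval from 27.7 to 100.6, and the fitted log2 fold change was -5.59 ± 0.48 (SE, adjusted p = 2.32e-05). Abcg1 measured 0.518, 0.536 and 0.891 CPM against 0.109, 0.106 and 0.223 CPM, on 34 and 8 summed counts. Its ratio was 4.49 (counting interval 2.04 to 11.2) and its adjusted p was 0.0179. Mylip measured 20.8, 21.1 and 26.2 CPM against 11, 8.82 and 9.62 CPM, with a fitted log2 difference of -1.21 ± 0.20 (SE, adjusted p = 0.00146). In all 3 genes the lowest WT sample was above the highest A159V sample.

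**Figure D4:**
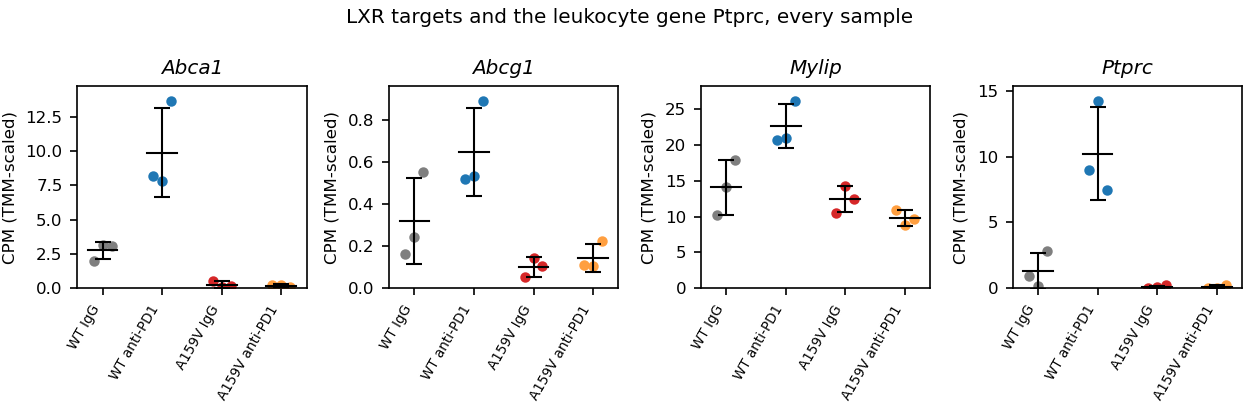
CPM scaled by TMM (linear y axis from 0) in every sample for the LXR targets Abca1, Abcg1 and Mylip and the leukocyte gene Ptprc, with the mean and SD of 3 mice as bars. Abca1 and Ptprc are both highest in WT anti-PD1, at 9.89 and 10.2 CPM on average, and near 0 in both A159V groups.

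Marker genes of other cell types also differed in this comparison. In WT anti-PD1, Ptprc was 9.01, 14.2 and 7.46 CPM, against at most 0.278 CPM in A159V anti-PD1, and 3 of the 5 testable leukocyte markers were called lower in A159V anti-PD1. The sum of the fibroblast markers was 706 to 1508 CPM in WT anti-PD1 and 194 to 269 CPM in A159V anti-PD1, with 4 of 7 called lower. Abca1 and Abcg1 are well known in macrophages. The sum of 12 macrophage markers, mostly Cd68 and Cd14, was 47.4 to 61 CPM in WT anti-PD1 and 54.5 to 60.6 CPM in A159V anti-PD1, with 2 of 6 testable genes called lower. These were Cd163, at 1.30 against 0.144 CPM on average, and Fcgr1, at 0.679 against 0.0540 CPM. Adgre1, Csf1r and Mrc1 stayed at or below 0.134, 0.452 and 0.351 CPM in all samples. Under IgG the sum was 39.5 to 48.7 CPM in WT and 53.1 to 74.6 CPM in A159V, with 1 called higher and 1 lower. With the leukocyte score in the fit, Abca1 was the only member called under anti-PD1, and only 9 genes were called in the whole table. Fitted values changed unevenly with it. Those of Fdps and Mylip were larger, at log2 fold changes of 1.13 (adjusted p = 0.671) and -1.35 (adjusted p = 0.683). The median of the mevalonate genes was 0.93, while 1 of the 9 fatty acid genes turned negative. The score itself kept the genotypes apart, being 0.794 or more in WT anti-PD1 samples but -0.827 or less in A159V anti-PD1 samples. The size of these fitted values therefore cannot show what part leukocytes had. Whether leukocytes or tumor cells carried the Abca1 reads was not tested.

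Several calls under anti-PD1 depended on scaling. With RLE scaling 5 members were called (Acat2, Fdps, Abca1, Abcg1 and Mylip) and with upper-quartile scaling 4 (Fdps, Abca1, Abcg1 and Mylip). The calls of Mvd, Dhcr7, Srebf1, Elovl6 and Fads1 were lost under both. Leaving out single replicates gave 3 to 7 calls. Without WT anti-PD1 replicate 3 or without A159V anti-PD1 replicate 1 there were 3 calls, and without WT anti-PD1 replicate 2 or A159V anti-PD1 replicate 3 there were 4.

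The third comparison asked what anti-PD1 did to these genes in WT tumors. Abca1 was the 1 member called, higher with anti-PD1, where 0.628% of all genes were called, 0.495% higher. Its log2 fold change was 1.84 ± 0.36 (SE, adjusted p = 0.0399), on the counts already given, and the groups did not overlap. The call was lost when any 1 of 5 of the 6 replicates was left out, with the leukocyte score, and when only the groups compared were fitted. Ptprc was also higher with anti-PD1, by 2.92 ± 0.62 (SE) on the log2 scale with an adjusted p of 0.0544, and 2 of the 5 testable leukocyte markers were called higher.

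The mevalonate genes were all on the lower side with anti-PD1, at a median of -0.34 on the log2 scale against 0.01 over all genes, and this sign held for all 7 with RLE and upper-quartile scaling. Fdps had the largest difference, from 282, 205 and 190.4 CPM in WT IgG to 150.5, 113 and 138 CPM in WT anti-PD1. The groups did not overlap, and the log2 fold change was -0.75 ± 0.17 (SE, adjusted p = 0.058). Pmvk went from 66.4, 47 and 40.7 CPM to 32.5, 33.6 and 31 CPM, with a fitted log2 difference of -0.67 ± 0.19 (SE, adjusted p = 0.0802). Both were called with DESeq2 and with no filter on low counts, but not in the edgeR fit used throughout. With the filter, edgeR called both when a block for replicate number was added and when WT IgG replicate 4 was left out. Groups did not overlap in 10 members, 4 higher and 6 lower with anti-PD1, where this held for 34.6% of all genes.

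Elsewhere, Msmo1 had a log2 fold change of -0.45 (adjusted p = 0.103) and Ebp of -0.40 (adjusted p = 0.12), while Hsd17b7 had one of 0.60 ± 0.19 (SE, adjusted p = 0.0974) and Mylip one of 0.68 ± 0.20 (SE, adjusted p = 0.0828). Across the 9 fatty acid genes the median was 0.16 on the log2 scale, with 7 positive and 0 called. Srebf1 and Srebf2 differed by -0.02 and 0.17 on the log2 scale (adjusted p = 0.929 and 0.508). Without WT IgG replicate 4, 8 members were called, namely Hsd17b7, Acaca, Fasn, Abca1 and Mylip higher and Pmvk, Fdps and Ebp lower with anti-PD1. That fit called 3458 of 14646 genes in the whole table, against 90 of 14340 with all samples, so the rise was not particular to the members.

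The fourth comparison made the same contrast in A159V tumors. No member was called by edgeR, DESeq2 or voom. In the whole table edgeR called 0% of genes and voom 0 genes, while DESeq2 called 2, and by edgeR 3.63% of genes and 2 members had an unadjusted p under 0.05. Those members were Dhcr7, at 80.3, 83.5 and 91.2 CPM in A159V IgG and 66.5, 63.9 and 73.2 CPM in A159V anti-PD1, and Scap, at 95.1, 100.1 and 110 against 80.7, 83.6 and 92.6 CPM. Neither overlapped, and their log2 fold changes were -0.33 and -0.25 with an adjusted p rounding to 1. Of the 36 members 29 had negative values, among them all 6 regulators, with a median log2 fold change of -0.12 against 0.00 over all genes. Groups did not overlap in 3 members (Dhcr7, Scap and Acly), each lower with anti-PD1, where this held for 11% of all genes, 6.5% lower and 4.51% higher. For Fdps, the interval of the log2 fold change in A159V ran from -0.30 to 0.42.

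**Figure D5:**
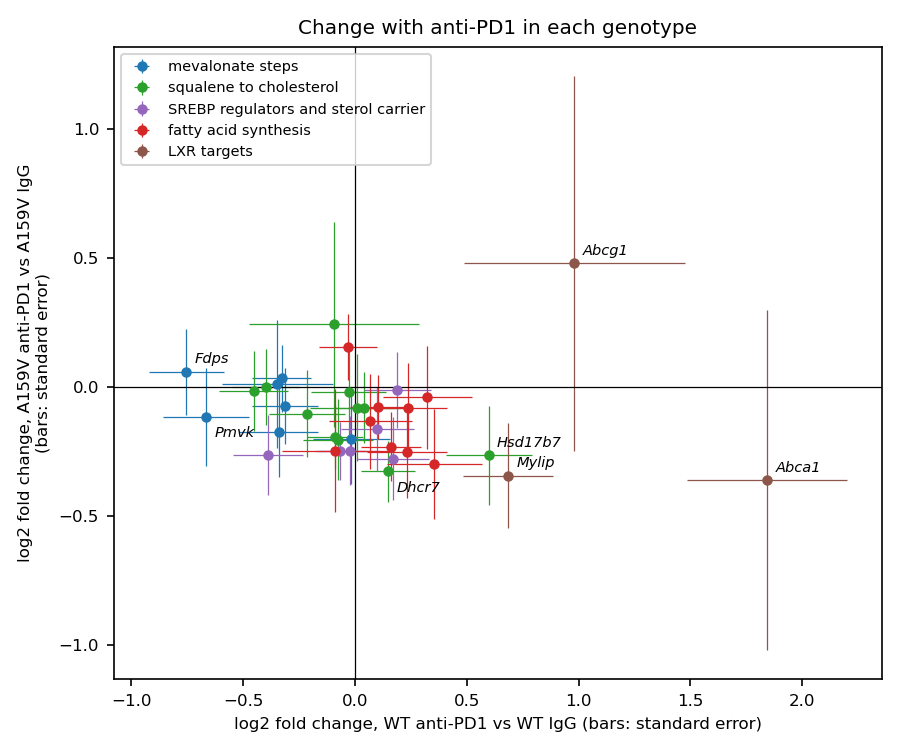
Log2 fold change with anti-PD1 in WT tumors (x axis) and in A159V tumors (y axis) for the 36 genes, colored by role, with standard errors as bars. The mevalonate genes lie to the left of 0 in WT, Abca1 lies farthest to the right at 1.84, and the A159V values stay between -0.36 and 0.48.

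A test of the difference between genotypes in the anti-PD1 change called no member, 1 gene in the whole table (0.00697%), and left 5 members at an unadjusted p under 0.05, where 17.6% of all genes reached it. Those were Mylip (-1.03 ± 0.29 SE on the log2 scale, adjusted p = 0.176), Fdps (0.81 ± 0.24, adjusted p = 0.189), Hsd17b7 (-0.86 ± 0.27, adjusted p = 0.21), Abca1 (-2.20 ± 0.76, adjusted p = 0.224) and Dhcr7 (-0.47 ± 0.17, adjusted p = 0.224). DESeq2 called Mylip alone of the members, where it called 295 of 14340 genes. Without WT IgG replicate 4, edgeR called 4 members, Fdps, Hsd17b7, Fasn and Mylip, where 1182 of 14646 genes were called. A response to anti-PD1 that differs between genotypes was thus not established for any of the 36 genes in the fit with all samples.

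Further genes of the same metabolism were counted from lists of related functions. These lists were chosen with earlier results of these data known, so they are not independent of the data. Their shares called are read against 15.6% of all genes called higher and 28% called in either direction under IgG, and 11.2% and 21.4% under anti-PD1. Of 9 tested genes for substrate supply and cofactors, 3 (33.3%) were called higher in A159V IgG: the malic enzyme gene Me1 (log2 fold change 0.72, adjusted p = 0.005), the P450 reductase gene Por (0.56, adjusted p = 0.00839) and the acetyl-CoA synthetase gene Acss2 (0.37, adjusted p = 0.032). Under anti-PD1 the 3 called higher were Me1 (0.77), Por (0.42) and Mid1ip1 (0.45). Of 15 tested genes of the isoprenoid branch and sterol handling, 6 were called higher in A159V IgG (40%) and 0 lower. Soat1, which esterifies cholesterol for storage, led with a log2 fold change of 1.13 ± 0.17 (SE, adjusted p = 6.49e-04), at 119, 118 and 141 CPM in WT IgG, against 307, 301 and 221 CPM in A159V IgG, with no overlap. The others were the SREBP protease gene Mbtps1 (0.54), Erlin1 (0.55), Erlin2 (0.52), the sterol-binding Osbp (0.51) and Dhdds (0.39). Under anti-PD1, Soat1 (0.83), Pdss1 (0.63) and Dhdds (0.39) were called higher.

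Of 14 genes of fatty acid elongation and activation, 3 were called higher (21.4%) and 2 lower in A159V IgG, 35.7% in all, which is near the background. Fads3, the third desaturase gene of the cluster on chromosome 19, measured 50.7, 61.7 and 48 CPM in WT IgG, against 117, 111 and 121 CPM in A159V IgG, with a fitted log2 difference of 1.12 ± 0.12 (SE, adjusted p = 1.02e-04). In mm10 it lies at 10041569 to 10060110, beside Fads2 at 10062765 to 10101746 and Fads1 at 10182888 to 10196877, so these 3 called genes lie close together. The acyl-CoA synthetase genes went apart, Acsl1 being higher (1.10 ± 0.14 SE, adjusted p = 2.33e-04) and Acsl5 lower (-2.14 ± 0.33 SE, adjusted p = 8.72e-04). Elovl4 was called higher (0.66) and Hacd1 lower (-0.92). Under anti-PD1, Fads3 (0.76) and Acsl1 (0.54) were called higher and Acsl5 (-1.02) lower.

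Of 10 glycerolipid and LXR-linked genes, 3 (30%) were called higher in A159V IgG and 0 lower, and the share in either direction was near the background. Dgat2, which makes triacylglycerol, measured 16.8, 15.8 and 11.3 CPM in WT IgG, against 33.2, 32.2 and 32.4 CPM in A159V IgG, with a fitted log2 difference of 1.16 ± 0.18 (SE, adjusted p = 8.32e-04). Lpcat3, a phospholipid acyltransferase and known LXR target, was on the opposite side to Abca1, at 72.3, 75.2 and 76.8 CPM against 146, 148 and 139.7 CPM, with a fitted log2 difference of 0.95 ± 0.11 (SE, adjusted p = 1.03e-04). Gpam, the first acyltransferase of the path, had a log2 fold change of 0.99 (adjusted p = 0.0167). Dgat2 (0.69) and Lpcat3 (0.64) were called higher under anti-PD1 as well. The LXR genes Nr1h2 and Nr1h3 were not called in any comparison. Across these 4 lists 0 genes were called in either anti-PD1 comparison with IgG.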

How the data were processed

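As the study's methods state, the authors aligned paired reads to mm10 with STAR, processed the alignments in Samtools and used summarizeOverlaps to count the reads of each gene. They deposited raw counts per gene, unnormalized and per sample. Counting mode, strand setting and annotation release are not given in the sources used here, so the 7 members that overlap a gene on the same strand and the 7 that overlap one on the other strand are less certain. Of 33217 Ensembl identifiers, 32064 matched a symbol in GENCODE M21. The other 2 features had 0 counts. Groups and replicate numbers came from the sample titles, and each title matched 1 column.

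The count model was edgeR 4.0.16 run under R 4.3.3. Genes kept by filterByExpr (14340) were scaled by TMM and fitted in 1 quasi-likelihood model of the 4 groups over 12 samples, with 8 residual degrees of freedom. The 5 contrasts were adjusted by Benjamini-Hochberg over all genes tested. CPM values are TMM-scaled and RPKM values divide them by exon length. At these depths 3 counts, the floor, equal 0.137 to 0.213 CPM. Intervals on summed counts are exact, at 95%, and cover counting error only, since reads carry no molecular identifiers. Alternatives were RLE and upper-quartile scaling, no filter or at least 10 counts in every sample, DESeq2 1.42.0, voom in limma 3.58.1, a leukocyte score, a replicate block, fits of only the groups compared, no limit on the fold change, and leaving out each replicate. The scripts were tested on simulated data. Figures used matplotlib 3.10.9.

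Genes described with all their values are the members called in a comparison, the SREBP regulators and the LXR targets. The members, gene lists and tests were chosen with earlier results of these data known. Of the related genes, Thrsp had too few counts and Faxdc2 had no row. P-values test differences between groups against the spread between mice within groups, estimated over the 4 groups with information shared across genes. They do not cover variation between clones.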

Additional observations from a re-analysis of the deposited data

How the results depend on the processing

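Of the values of single called members under an alternative, 238 stayed called, 109 did not and 0 changed direction. Members called in A159V IgG versus WT IgG numbered 11, against 4 with the leukocyte score and 4 when only the groups compared were fitted, and 7 to 14 with 1 replicate left out. Over all genes these numbers were 4010, 1058 and 1399, and 2578 to 4717 with 1 replicate left out. In A159V anti-PD1 versus WT anti-PD1 the 10 calls became 5 with RLE scaling, 4 with upper-quartile scaling, 5 with no filter, 3 with at least 10 counts in every sample (Abca1 and Abcg1 then not tested), 1 with the leukocyte score, 13 with only the groups compared (Pmvk, Fdft1, Insig1 and Fads2 gained, Abcg1 lost) and 3 to 7 with 1 replicate left out. The 3075 calls over all genes became 2795, 2719, 2896, 2014, 9 and 5320 in the same order, and 1519 to 2171 with 1 replicate left out. Genes tested numbered 23702 with no filter and 12137 with at least 10 counts, against 14340 in the main fit. In WT anti-PD1 versus WT IgG the 1 call became 3 with no filter, 0 with at least 10 counts (Abca1 not tested), 6 with DESeq2, 2 with voom, 0 with the leukocyte score, 0 with only the groups compared and 0 to 8 with 1 replicate left out. Here the 90 calls over all genes became 771, 25, 1478, 188, 1 and 0, and 1 to 3458 with 1 replicate left out. A159V anti-PD1 versus A159V IgG gave 0 throughout, and the difference between genotypes gave 1 with DESeq2 and 0 to 4 with 1 replicate left out. For that difference DESeq2 called 295 of all genes, and leaving out 1 replicate gave 0 to 1182. With the replicate block, calls numbered 20, 14, 9, 0 and 7 in the 5 comparisons, where 5867, 5018, 4650, 0 and 2760 of 14340 genes were called. The replicate numbers were not shown to pair mice, and this block drops WT IgG replicate 4 and A159V IgG replicate 5, whose numbers no other sample carries. Samples with the same replicate number in different groups did not deviate together (r from -0.18 to 0.20 over 13 pairs, against -0.22 to 0.23 over 41 other pairs). Upper-quartile scaling moved the all-gene median under IgG, on the log2 scale, from 0.02 to -0.12. The causes of these changes were not tested. Depth limits Abca1 and Abcg1, with 2 to 10 and 1 to 4 counts in the A159V samples.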

Other observations

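The balance between the fatty acid and mevalonate genes differed within WT IgG more than between the other groups. The mean log2 CPM of the 9 fatty acid genes minus that of the 7 mevalonate genes was 0.43, 0.97 and 1.26 in WT IgG, 1.39, 1.57 and 1.40 in WT anti-PD1, 1.43, 1.44 and 1.43 in A159V IgG, and 1.37, 1.32 and 1.38 in A159V anti-PD1. All WT IgG samples lay below all others, with WT IgG replicate 1 farthest away. Its mevalonate mean was the highest of the 12 samples at 6.53 on the log2 scale, and its fatty acid mean the lowest at 6.97. This measure was chosen after the values were seen and was not tested.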
